A study of Mus musculus with 4 samples.

Results

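The data describe 9 genes of the epithelial tight junction in mouse embryonic stem (ES) cells: the claudins Cldn3, Cldn4, Cldn5, Cldn6, Cldn7 and Cldn9, the membrane protein gene Ocln (occludin), and the cytoplasmic plaque genes Tjp1 (ZO-1) and Cgn (cingulin). They were chosen by symbol, and all 9 were found among the 37224 Ensembl gene identifiers of the deposited tables. RNA-seq was done on 2 libraries of wild-type ES cells, titled normal, and 2 libraries of Smg6-deficient ES cells. The labels are silent on strain, sex, culture conditions, feeder cells, the way Smg6 was made deficient and whether replicates are separate cultures or clones. Each p-value therefore reflects the spread of these 4 libraries alone, and that spread may be technical. The product of Smg6 cuts transcripts in nonsense-mediated mRNA decay (NMD), and the design compares transcript levels with and without it.

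Count totals per library lay between 130888768 and 155391181. Smg6 itself was counted at 95.7 and 105.1 CPM (counts scaled to the size of the library) in wild-type cells and at 87.6 and 86.2 CPM in Smg6-deficient cells (log2 fold change -0.21, SE 0.083; edgeR gave an adjusted p of 0.089), and a count over the whole gene does not show the loss of some exons. Markers of pluripotent cells were counted in all libraries, 8 of 8 above 0, with a summed level of 4871 and 4069 CPM in wild-type and 3011 and 2978 CPM in Smg6-deficient cells. Of the 8, 5 fell and 1 rose (median log2 fold change -0.49), where 19.2% of all genes tested fell and 20.5% rose. Nanog, a core factor of pluripotency, fell by 2.04 on the log2 scale (adjusted p = 0.00025 by edgeR) and Dppa5a by 1.14, while Utf1 rose by 0.98. Pou5f1, Esrrb and Zfp42, named after their values were seen, were the other genes that fell (-0.49, -0.53 and -0.49). The part of this difference in the values of the junction genes was not tested.

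Tight junctions seal the space between neighbouring epithelial cells near their apical side. Claudins span the membrane several times and form the strands, with some members known to tighten the seal and others to form channels for ions. Occludin and its MARVEL relatives lie in the same strands, and ZO proteins and cingulin tie the strands to actin. In mouse embryos tight junctions are known from the trophectoderm and from extraembryonic endoderm, and undifferentiated ES cell colonies also express E-cadherin and claudins.

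The 9 genes differ in structure. The main coding transcripts of Cldn3, Cldn4, Cldn5 and Cldn9 have 1 exon in GENCODE M21 (GRCm38), whereas those of Cldn6, Cldn7, Ocln, Cgn and Tjp1 have 3, 4, 9, 21 and 28. None of the 9 main transcripts has an exon junction after its stop codon, the feature best known to direct a transcript to NMD, and only Tjp1 has an annotated NMD transcript (1 of 7). Their trailers, the stretch after the stop codon, run from 168 nt in Cldn7 to 2307 nt in Ocln. Cldn6 and Cldn9 face each other on chromosome 17 with 137 bases between their ends, and Cldn4 and Cldn3 lie on chromosome 5, on opposite strands, 39279 bases apart. For all 9 except Cgn, no 50 nt window of the transcripts, the length of a read, occurs in the transcripts of another gene. In Cgn 17.2% of the windows do, so part of its count depends on how reads with several matches were treated, which no label states.

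Promoter sequence was examined for the 9 genes, of which 4 passed as higher in Smg6-deficient cells and 5 did not pass. RefSeq promoters (GRCm38.p6, from 250 bases before to 50 bases after a start) were matched for 8 of the 9 genes, 10 promoters in all, with Cldn9 unmatched. The E-box CACCTG, a motif of Snail and Zeb repressors, was found on either strand in promoters of Cldn3, Cldn4, Cldn6, Cldn7 and Ocln (5 of 8 genes). Counted by promoter, 6 of the 10 held it, against 20.2% of all 32851 promoters in the table. The 10 promoters were 52.0% to 70.3% G or C, against a median of 52.7% for all promoters. The shares were not matched for this, so they do not show enrichment. The promoters of Ocln overlap and share a match. The Grainyhead motif AACCGGTT and the GATA motif AGATAA were in none of the 10, against 0.146% and 11.2% of all promoters. No motif match overlapped another. The 250 bases before the start are shown 5′ to 3′ for the 4 genes that rose and for Cldn4, the claudin with the highest level, with E-box matches in capitals. A further match in Cldn6 (position 291 from the 5′ end) and in Cldn4 (position 262) lies in the 50 bases after the start, which are not printed. Starts are those of RefSeq, and the starts of Tjp1, Cldn6 and Cgn lie inside the GENCODE genes.
Cldn5 (chr16:18776597-18776846, plus strand): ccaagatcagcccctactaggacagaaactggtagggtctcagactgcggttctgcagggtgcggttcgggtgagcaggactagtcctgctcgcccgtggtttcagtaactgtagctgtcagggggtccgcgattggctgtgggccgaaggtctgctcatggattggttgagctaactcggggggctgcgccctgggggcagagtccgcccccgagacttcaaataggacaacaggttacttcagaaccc
Cldn6 (chr17:23679115-23679364, plus strand): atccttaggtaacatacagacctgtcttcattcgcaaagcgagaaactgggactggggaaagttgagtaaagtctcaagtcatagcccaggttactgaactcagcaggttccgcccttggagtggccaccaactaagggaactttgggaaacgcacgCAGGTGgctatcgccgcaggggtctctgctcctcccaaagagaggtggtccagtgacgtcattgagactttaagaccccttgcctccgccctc
Tjp1 (chr7:65371245-65371494, minus strand): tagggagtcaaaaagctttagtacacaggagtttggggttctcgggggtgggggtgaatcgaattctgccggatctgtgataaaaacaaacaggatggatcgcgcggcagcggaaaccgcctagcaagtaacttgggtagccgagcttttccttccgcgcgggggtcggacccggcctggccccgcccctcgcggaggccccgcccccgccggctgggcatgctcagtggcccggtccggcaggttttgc
Cgn (chr3:94786483-94786732, minus strand): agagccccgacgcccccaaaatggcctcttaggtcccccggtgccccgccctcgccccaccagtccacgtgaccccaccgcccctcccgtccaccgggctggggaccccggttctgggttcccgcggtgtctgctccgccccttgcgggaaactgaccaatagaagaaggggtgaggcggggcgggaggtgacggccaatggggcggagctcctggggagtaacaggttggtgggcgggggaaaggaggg
Cldn4 (chr5:134946935-134947184, minus strand): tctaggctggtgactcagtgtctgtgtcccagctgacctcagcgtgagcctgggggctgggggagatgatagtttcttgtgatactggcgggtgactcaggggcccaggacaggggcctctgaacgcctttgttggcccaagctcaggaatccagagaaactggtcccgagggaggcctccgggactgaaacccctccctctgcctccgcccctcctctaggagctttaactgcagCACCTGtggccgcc
Of the 4 genes that rose, Cldn6 alone held the E-box, and the 4 matched genes that did not pass the test each held it in at least 1 promoter. The Cldn7 promoter at chr11:69964529-69964828 held none. This grouping depends on the threshold: Tjp1 passed at an edgeR adjusted p of 0.047 and Cldn4 missed it at 0.063. Each of them passed in 7 of 17 alternatives. A relation between the motif and the calls was not tested. A match is a description of the letters and does not show binding.

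Levels between genes were compared per length, on the deposited RPKM scale (reads corrected for gene length and library size). Cldn4 was the highest of the 9 in wild-type cells, at 59.4 and 63.3 RPKM. Next came Cldn6 at 28.4 and 22.1 RPKM and Tjp1 at 23.7 and 26.6 RPKM, and these neighbours overlapped between libraries. Cldn7 followed at 15.5 and 16.8 RPKM, Cldn3 at 5.67 and 4.66, Cgn at 3.81 and 4.03, Ocln at 1.51 and 1.43, Cldn9 at 0.80 and 0.65, and Cldn5 last at 0.12 and 0.11. Apart from Cldn6 and Tjp1, neighbours in this order did not overlap. In Smg6-deficient cells the first 4 genes kept the same order of means, Cgn stood above Cldn3 (5.56 against 3.92 RPKM), and Cldn5 and Cldn9 had the same mean of 0.575 RPKM. Cldn5 and Cldn9 were then the neighbours whose libraries overlapped.

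Of the 9 genes, all of which had enough counts to test, 4 passed the threshold as higher in Smg6-deficient cells (Cldn5, Cldn6, Cgn and Tjp1) and 0 passed as lower, by the quasi-likelihood test of edgeR, with p-values adjusted (Benjamini-Hochberg) over 20895 genes at 0.05. At an unadjusted p under 0.05 the count of lower genes was 1, Cldn4, which the DESeq2 Wald test also called lower, while limma-voom and limma-trend called 0 lower. Among all genes tested 39.7% were called, 20.5% higher and 19.2% lower, so the share of junction genes called is near that of genes in general. The median log2 fold change of the 9 was -0.23, against 0.008 for all genes tested. For 8 of the 9, wild-type and Smg6-deficient libraries were fully apart, with 4 higher and 4 lower, against 73.2% of all genes tested.

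**Figure D1:**
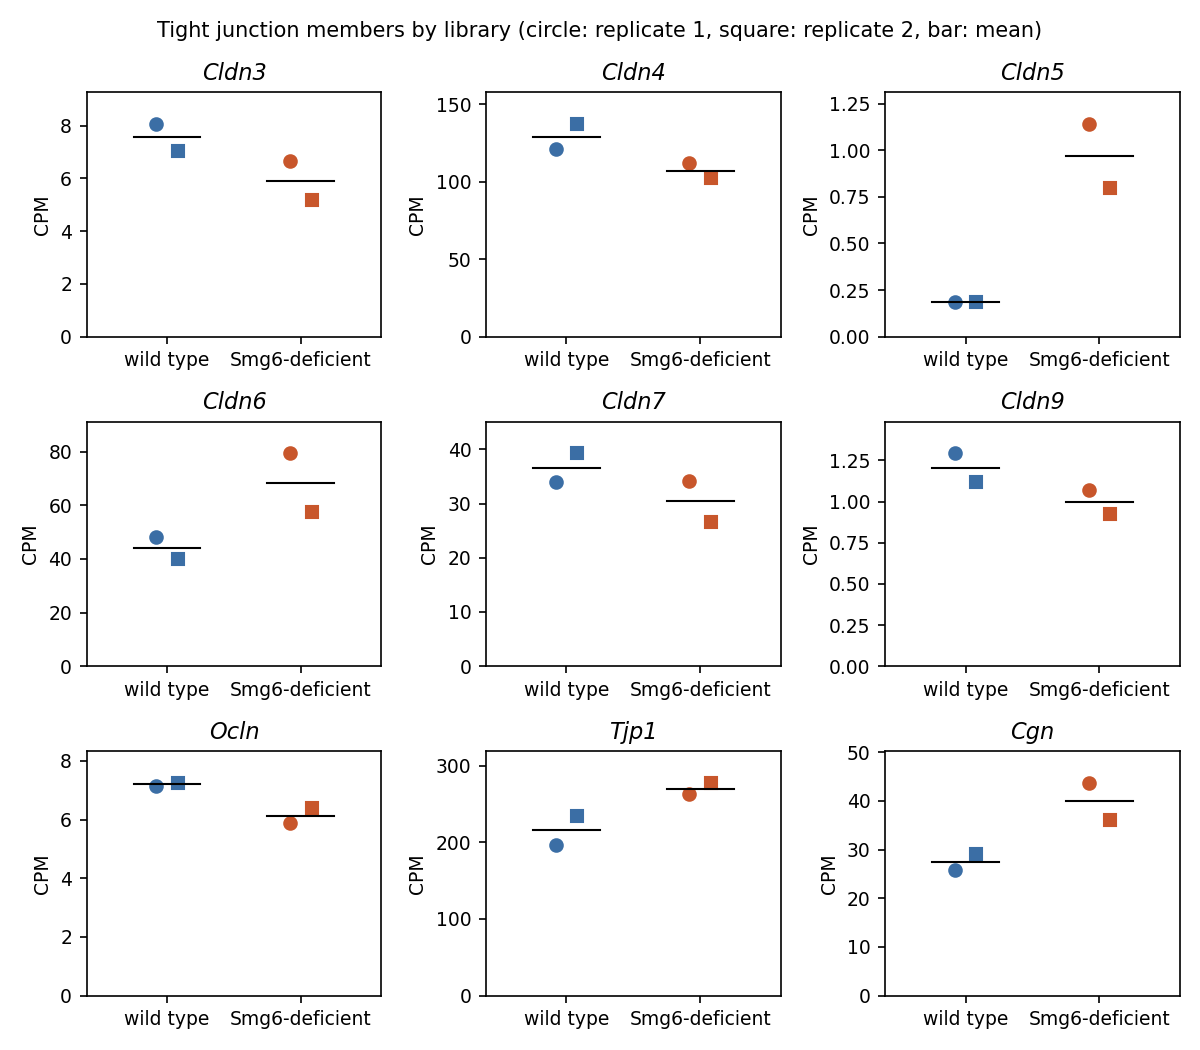
CPM of each of the 9 genes (vertical axes, each starting at 0) in the wild-type and Smg6-deficient libraries; circles are replicate 1, squares replicate 2 and bars the mean of 2 libraries. Cldn5, Cldn6, Tjp1 and Cgn lie higher in both Smg6-deficient libraries than in both wild-type libraries, and Cldn7 is the gene whose groups overlap.

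Cldn5 (ENSMUSG00000041378, chr16:18776847-18778262), the claudin that seals the blood-brain barrier endothelium, had the largest change of the 9 from the lowest level. It was counted 26 and 25 times in the wild-type libraries, or 0.186 and 0.187 CPM, and 174 and 108 times in the Smg6-deficient libraries, or 1.14 and 0.80 CPM. Both Smg6-deficient libraries lay far above both wild-type libraries. The log2 fold change was 2.38 (SE 0.30, adjusted p = 0.0016 by edgeR), and the ratio of summed counts was 5.27 (95% exact interval 3.90 to 7.24, which covers counting error only). It passed in all 17 alternatives, with a smaller value of 0.49 on the log2(RPKM + 1) scale, where the added 1 exceeds its level.

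Cldn6 (ENSMUSG00000023906, chr17:23679249-23682446), a claudin of embryonic epithelia and pluripotent cells, stood at 48.1 and 39.9 CPM in wild-type and at 79.4 and 57.6 CPM in Smg6-deficient cells. The groups did not overlap, but Smg6-deficient replicate 2 was nearer to the wild-type libraries than replicate 1 was. Cldn6 rose by a log2 fold change of 0.64 (SE 0.17, adjusted p = 0.022 by edgeR). With Smg6-deficient replicate 1 left out the log2 fold change was 0.40 and the call was lost (adjusted p = 0.089 by edgeR), as it was by limma-trend on log2(RPKM + 1) (0.56, adjusted p = 0.12) and log2(RPKM + 0.1) (0.58, adjusted p = 0.12). Its neighbour Cldn9 (ENSMUSG00000066720, chr17:23682584-23684026) stood at 1.29 and 1.12 CPM in wild-type and 1.07 and 0.93 CPM in Smg6-deficient cells. The log2 fold change of Cldn9 was -0.27 (95% interval -0.78 to 0.23, edgeR adjusted p = 0.34), so the facing pair gave values of opposite sign; their difference was not tested.

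Cldn4 (ENSMUSG00000047501, chr5:134945119-134946934), a sealing claudin of simple epithelia, had 121 and 137 CPM in wild-type and 112 and 102 CPM in Smg6-deficient cells. Both Smg6-deficient libraries lay below both wild-type libraries. The log2 fold change of -0.27 (SE 0.096, 95% interval -0.50 to -0.04) did not pass (edgeR adjusted p = 0.063). It passed in 7 of 17 alternatives, among them upper-quartile factors (-0.31, edgeR adjusted p = 0.048), library size alone (-0.33, 0.036), TMM factors from autosomal genes (-0.32, 0.039) and the replicate block (-0.27, 0.039). With these 3 scalings, 3 of the 9 genes were called higher and 1 lower, in place of 4 and 0.

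Cldn7 (ENSMUSG00000018569, chr11:69964779-69967885), which binds the adhesion protein Epcam, and Cldn3 (ENSMUSG00000070473, chr5:134986214-134987472), another sealing claudin, gave values of the same sign as Cldn4. Cldn7 had 33.9 and 39.2 CPM in wild-type and 34.1 and 26.7 CPM in Smg6-deficient cells, with overlapping groups (log2 fold change -0.27, 95% interval -0.60 to 0.07, edgeR adjusted p = 0.17). Cldn3 had 8.06 and 7.05 CPM in wild-type and 6.64 and 5.16 CPM in Smg6-deficient cells, without overlap (log2 fold change -0.36, 95% interval -0.75 to 0.03, edgeR adjusted p = 0.13). Leaving out wild-type replicate 2 brought Cldn3 past the threshold (-0.47, edgeR adjusted p = 0.045). The gene Wbscr25 overlaps Cldn3 on the opposite strand, and the libraries do not mark strand, but it was counted only 9 to 23 times per library against 697 to 1129 for Cldn3.

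Occludin also gave a negative value that did not pass. Ocln (ENSMUSG00000021638, chr13:100496507-100552718) stood at 7.16 and 7.25 CPM in wild-type and 5.87 and 6.39 CPM in Smg6-deficient cells, and the groups did not overlap. Its log2 fold change of -0.23 (SE 0.12, 95% interval -0.53 to 0.06) did not pass (edgeR adjusted p = 0.18), and it passed in 0 of 17 alternatives.

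Both plaque genes rose. Cgn (ENSMUSG00000068876, chr3:94760069-94786492), which links ZO proteins to actomyosin, stood at 25.7 and 29.0 CPM in wild-type and 43.7 and 36.2 CPM in Smg6-deficient cells, without overlap. It rose by a log2 fold change of 0.54 (SE 0.12, adjusted p = 0.013 by edgeR). Cgn missed the threshold once Smg6-deficient replicate 1 was removed (0.41, adjusted p = 0.082 by edgeR) and by limma-trend on log2(RPKM + 1) (0.41, adjusted p = 0.080) and log2(RPKM + 0.1) (0.48, adjusted p = 0.074). Tjp1 (ENSMUSG00000030516, chr7:65296165-65527781), the scaffold that clusters claudins, had 197 and 234 CPM in wild-type and 263 and 278 CPM in Smg6-deficient cells. Tjp1 rose by a log2 fold change of 0.33 (SE 0.10), just inside the threshold (edgeR adjusted p = 0.047). It passed in 7 of 17 alternatives; the call was lost with library size alone (0.27, edgeR adjusted p = 0.086), with the gene length correction (0.17, 0.18) and without Smg6-deficient replicate 1 (0.38, 0.10) or 2 (0.30, 0.21), among others.

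Because claudins combine in strands, the mix of claudin transcripts was described over all 29 claudins matched in the tables. Their RPKM values summed to 122.1 and 121.5 in wild-type and 132.9 and 106.6 in Smg6-deficient libraries, so the groups overlapped in the total. Cldn4, Cldn6 and Cldn7 together made up 84.5% and 84.2% of that sum in wild-type and 85.2% and 82.7% in Smg6-deficient libraries. Within it, Cldn4 took 48.6% and 52.1% in wild-type and 39.9% and 43.1% in Smg6-deficient libraries, and Cldn6 took 23.2% and 18.2% and then 34.0% and 29.2%. The ratio of Cldn6 to Cldn4 was 0.478 and 0.349 in wild-type and 0.853 and 0.678 in Smg6-deficient libraries, without overlap. Cldn6 lay higher and Cldn4 lower in both Smg6-deficient libraries, so the separation of their ratio follows from those values and adds nothing to them. An exact permutation test of 2 against 2 libraries cannot give a two-sided p below 0.333, so these shares are given with no test.

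**Figure D2:**
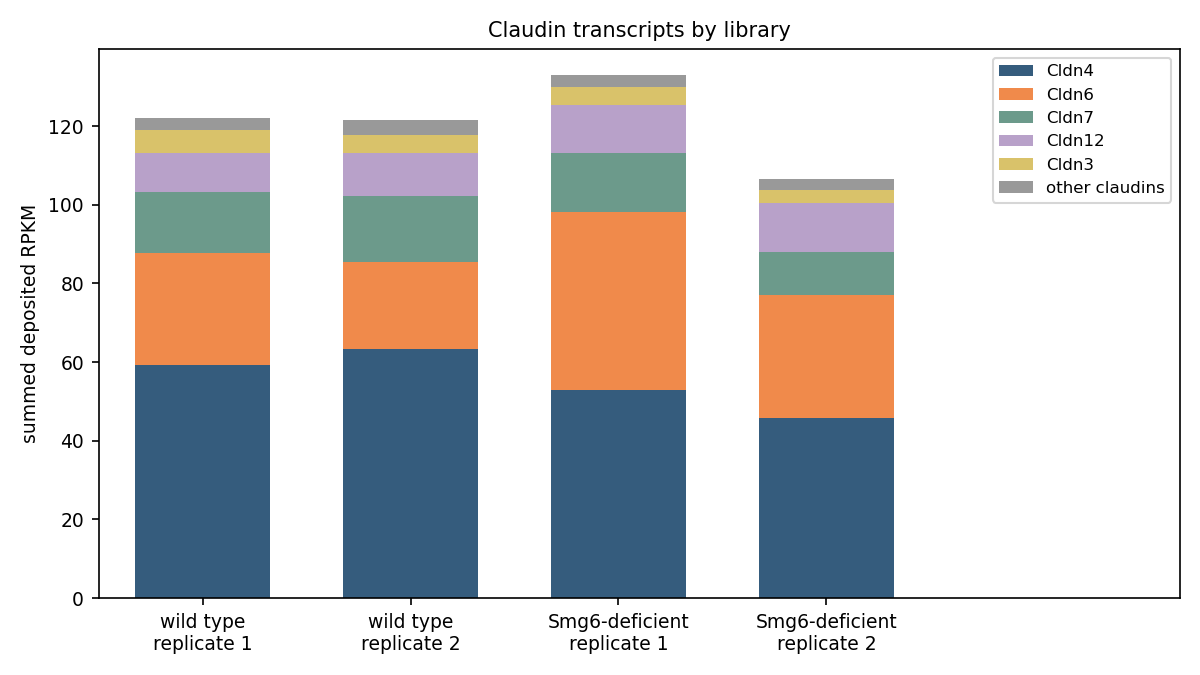
Deposited RPKM of the claudins, stacked by gene (vertical axis, from 0), in each of the 4 libraries. The bars total between 106.6 and 132.9 RPKM, and the Cldn6 segment is 22.1 and 28.4 RPKM in wild-type and 45.2 and 31.1 RPKM in Smg6-deficient libraries.

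The remaining claudins had at most 1.22 RPKM in any library, except Cldn12, an atypical claudin at 10.1 and 10.8 RPKM in wild-type and 12.2 and 12.4 RPKM in Smg6-deficient cells (log2 fold change 0.28, edgeR adjusted p = 0.054), chosen after its value was seen. Of 23 matched, 13 had enough counts to test, and 0 of them were called higher and 5 lower, with a median log2 fold change of -0.33. Over all genes tested 39.7% were called, 20.5% higher and 19.2% lower, so the share of other claudins called is near that of genes in general. Cldn19, known from kidney and retina, fell from 229 and 325 counts to 56 and 69 (log2 fold change -2.21, SE 0.29, adjusted p = 0.0019 by edgeR). Cldn2, a channel-forming claudin on chromosome X, fell from 84 and 89 counts to 18 and 3, and Cldn34c1, also on chromosome X, from 35 and 43 to 8 and 2 (log2 fold changes -3.12 and -3.02, edgeR adjusted p = 0.0054 for each). Cldn14 was counted 15 and 14 times in wild-type and 2 and 1 times in Smg6-deficient libraries, a ratio of 10.2 in favour of wild type with a 95% exact counting interval of 3.15 to 52.1. Cldn18, chosen after its value was seen, also passed as lower, from 16 and 25 counts to 7 and 1, but it passed in only 11 of the 16 alternatives that gave it a value. It was lost by the DESeq2 Wald test (adjusted p = 0.080), on both RPKM scales, and without wild-type replicate 2 (-2.03, edgeR adjusted p = 0.072). These 5 had at most 0.48 RPKM in any library. Cldn14, Cldn18 and Cldn34c1 reached the minimum count of 10 only in the wild-type libraries, so they entered the test through the group where they were higher. Their direction is therefore partly set by the filter and is no support for a fall of claudins in general. The calls of Cldn14 and Cldn18 were lost when Smg6-deficient replicate 2 was removed (adjusted p = 0.068 and 0.17 by edgeR), which left 3, and without wild-type replicate 1 there were 1 higher and 7 lower.

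Other membrane proteins of the junction included larger falls than any of the 9 genes. Of 12 tested, 2 rose and 5 fell, with a median log2 fold change of -0.14, where 20.5% of all genes tested rose and 19.2% fell. Ildr1, a protein of corners where 3 cells meet, fell from 29.5 and 33.5 CPM to a mean of 8.94 CPM (SD 0.078, n = 2; log2 fold change -1.82, SE 0.11, adjusted p = 0.00019 by edgeR). Jam2, a junctional adhesion molecule, fell from 149.9 and 107.0 CPM to 56.8 and 56.5 CPM (-1.18, SE 0.15, adjusted p = 0.0018 by edgeR), and Cldnd1, a claudin-domain protein, fell by 0.51 on the log2 scale. Igsf5 and Cxadr, chosen after their values were seen, completed the falls (-1.84 and -0.28). The 2 that rose were MARVEL relatives of occludin: Marveld3 from 1.70 to 3.71 mean CPM (log2 fold change 1.12, edgeR adjusted p = 0.0050) and Marveld2, chosen after its value was seen (0.38, 0.039). Ildr1, Jam2 and Marveld3 passed in all 17 alternatives, Marveld2 in 6 and Cxadr in 12. The calls of Cldnd1 and Igsf5 were each lost without 1 Smg6-deficient library, replicate 1 for Cldnd1 (-0.45, edgeR adjusted p = 0.056) and replicate 2 for Igsf5 (-1.37, 0.14). Without either Smg6-deficient library 1 of the 12 was called higher and 3 lower, and with the gene length correction 1 was higher and 5 lower.

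Of 22 other plaque and polarity genes tested, 9 rose and 3 fell, with a median log2 fold change of 0.19. The shares of all genes tested were 20.5% higher and 19.2% lower. With the gene length correction the excess of rises was gone, with 5 higher, 4 lower and a median of 0.03. Cgnl1 (paracingulin), the closest relative of Cgn, rose from 26.2 and 27.3 CPM to 59.7 and 53.9 CPM (log2 fold change 1.09, SE 0.091, adjusted p = 0.00041 by edgeR). Arhgef2 (GEF-H1), which cingulin binds at the junction, rose from 50.2 and 52.3 CPM to 94.4 and 88.2 CPM (0.83, SE 0.082, adjusted p = 0.00068 by edgeR). Amot (angiomotin), an X-linked binder of Hippo pathway proteins, rose from 13.0 and 15.6 CPM to 28.6 and 46.3 CPM (1.39, SE 0.22, adjusted p = 0.0039 by edgeR). These 3 passed in all 17 alternatives. The other 6 that rose (Pard6a, Patj, Mpdz, Amotl1, Magi1 and Pard6b) had log2 fold changes from 0.37 to 0.57 and passed in 11 to 13 of the 17. Mpp5 (Pals1), a polarity scaffold, fell by 0.42 on the log2 scale (edgeR adjusted p = 0.0079), and Magi3 and Pard3, chosen after their values were seen, fell by 0.36 and 0.29 log2 units; each of these 3 calls was lost without either Smg6-deficient library. Without Smg6-deficient replicate 1 the counts for this list were 3 higher and 0 lower, and without replicate 2 they were 6 and 0.

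**Figure D3:**
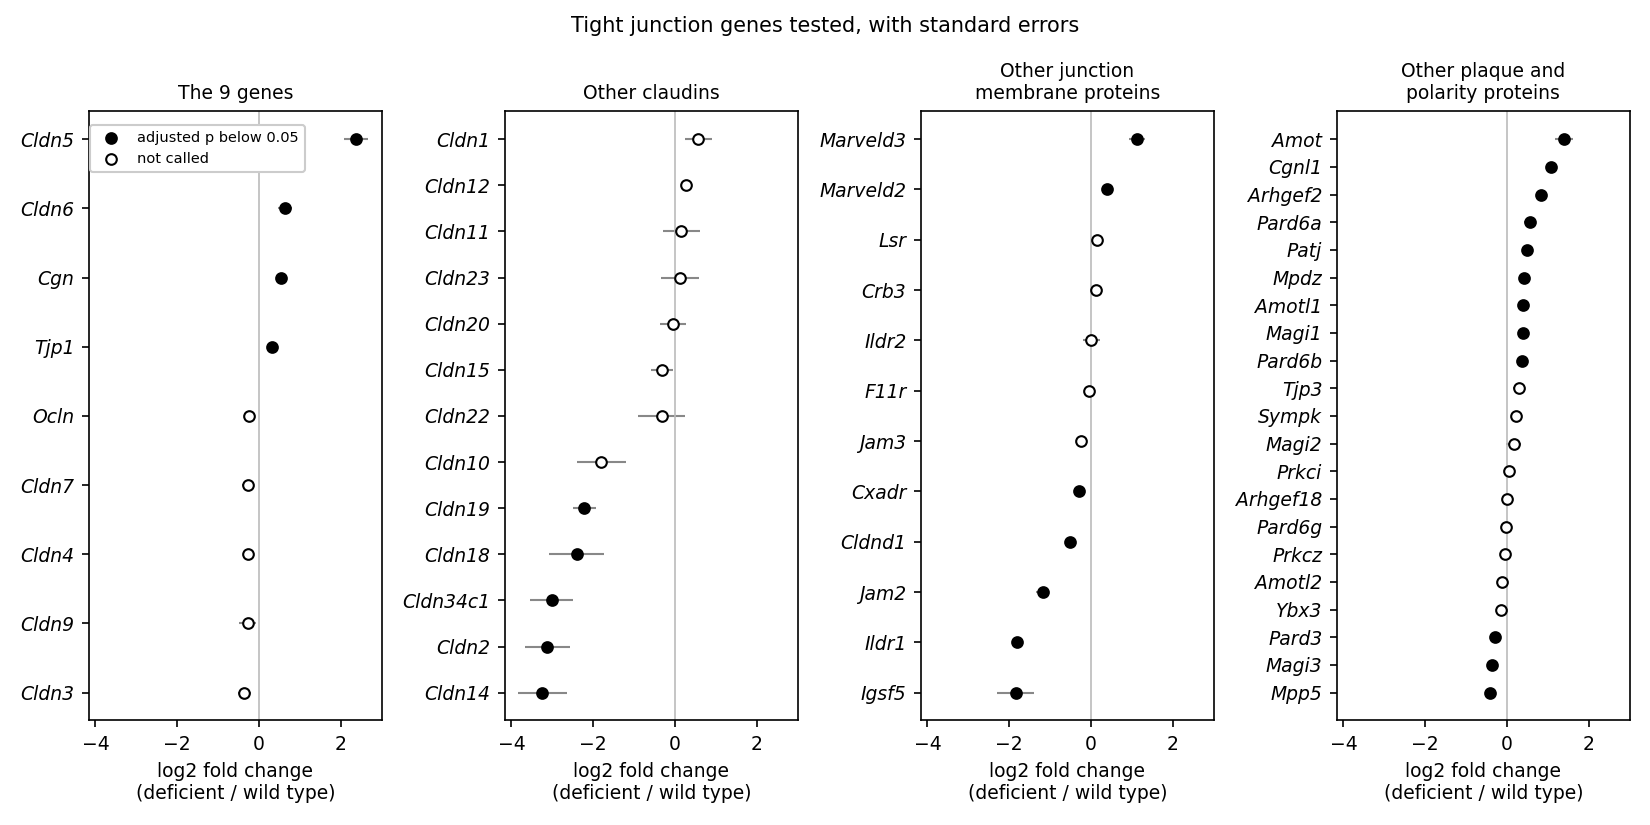
Log2 fold change of Smg6-deficient over wild type (horizontal axis) with its standard error for the 9 genes and for tested genes of the 3 wider tight junction lists; filled points passed an edgeR adjusted p of 0.05 and open points did not. Among the 9 genes Cldn5 stands apart at 2.38 while the other 8 lie between -0.36 and 0.64.

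Genes of the adjoining junction types were divided in direction. Of 14 adherens junction genes, 2 rose and 2 fell, with a median log2 fold change of 0.09. Neither here nor among the desmosome genes below did the share called exceed the 39.7% of all genes tested. Afdn (afadin), which joins nectins to actin, rose by 0.69 (edgeR adjusted p = 0.0019) and Cdh2 (N-cadherin) by 0.71 (0.032). Nectin3 and Nectin4 had log2 fold changes of -0.30 and -0.94 (edgeR adjusted p = 0.025 and 0.027). Cdh1 (E-cadherin), named after its value was seen, was not called (-0.044, edgeR adjusted p = 0.76), and its groups overlapped. Between the genotypes the mean level of Cdh1 went from 520.6 to 504.9 CPM, and that of Cdh2 from 7.31 to 12.0 CPM, wild type first. Of 11 desmosome genes, 2 rose (Pkp3 by 0.74 and Jup by 0.45) and 2 fell (Dsg2 and Dsp, with log2 fold changes of -1.01 and -0.64), with a median of 0.13. The calls of Afdn, Pkp3, Dsg2 and Dsp held in all 17 alternatives, those of Nectin4, Cdh2, Nectin3 and Jup in 15, 14, 13 and 13. With the gene length correction each of these lists had 1 higher and 2 lower.

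Regulators of epithelial genes were divided, with 4 of 17 higher and 4 lower and a median log2 fold change of -0.03. Shares over all genes tested were near these, at 20.5% higher and 19.2% lower. Zeb2, a repressor that binds E-boxes, rose from 5.16 to 8.93 mean CPM (log2 fold change 0.79, SE 0.12, adjusted p = 0.0030 by edgeR), and Snai1, another such repressor, rose by 0.91 (0.0082; chosen after its value was seen). Their relatives Zeb1 (-0.095, edgeR adjusted p = 0.45) and Snai2 (0.11, 0.78) were not called, nor was Twist1 (0.39, 0.13). Zeb1, at 26.9 and 25.2 mean CPM in wild-type and Smg6-deficient cells, stood above Zeb2. These genes too were named after their values were seen. The call of Zeb2 was lost with the gene length correction (0.42, edgeR adjusted p = 0.052). Esrp2, an epithelial splicing regulator, rose by 0.74 and Klf5, chosen after its value was seen, by 0.58. Grhl2, a Grainyhead factor known to activate claudin genes, fell from 59.2 to 43.5 mean CPM (log2 fold change -0.45, SE 0.085, adjusted p = 0.0072 by edgeR). When Smg6-deficient replicate 2 was removed the log2 fold change was -0.40 and the call was lost. Its relatives Grhl1 (-0.13, edgeR adjusted p = 0.33) and Grhl3 (-0.03, 0.90), named after their values were seen, were not called. Klf4 fell by 0.79 on the log2 scale, and Tfap2c and Hnf4a, chosen after their values were seen, fell by 0.66 and 1.13. Tfap2c passed in 12 of 17 alternatives, and its call was lost without wild-type replicate 1 (-0.34, edgeR adjusted p = 0.054) or Smg6-deficient replicate 2 (-0.47, 0.081). With the gene length correction 3 regulators were higher and 5 lower. Without 1 of the Smg6-deficient libraries the calls of Klf5 (replicate 2, edgeR adjusted p = 0.052) and Hnf4a (replicate 1, 0.078) were lost. No relation of these regulators to the 9 genes was tested.

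Markers of extraembryonic endoderm, an epithelium with tight junctions of its own, moved with genotype. In bulk RNA, more cells of a type and more RNA per cell cannot be told apart. Of 18 markers, 16 rose and 1 fell (Afp, log2 fold change -1.69, named after its value was seen), where 20.5% of all genes tested rose and 19.2% fell. Their summed level was 1179 and 1032 CPM in wild-type and 3296 and 4785 CPM in Smg6-deficient libraries. Ttr was at 0 in 1 wild-type library. Lama1, Cubn and Gata4, the markers of lowest adjusted p in the list, were counted in all 4, with log2 fold changes of 3.62, 4.95 and 3.97. Apoa1, named after its value was seen, was not called (-0.66, edgeR adjusted p = 0.20). The Smg6-deficient libraries differed here: of the 16 markers that rose, 15 were higher in replicate 2 than in replicate 1, with a median log2 ratio of 0.74. Of the 9 junction genes 7 were lower in replicate 2, among them Cldn5 and Cldn6 (each -0.46) and Cgn (-0.27), while Tjp1 (0.08) and Ocln (0.12) were slightly higher. Over all genes tested the median of this log2 ratio was -0.008, so a lower value in replicate 2 is common. Cldn6 was also lower in wild-type replicate 2 than in wild-type replicate 1 (-0.27). These ratios compare 2 libraries and have no replicate check, and the part of endoderm cells in the changes of the 9 genes was not tested.

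**Figure D4:**
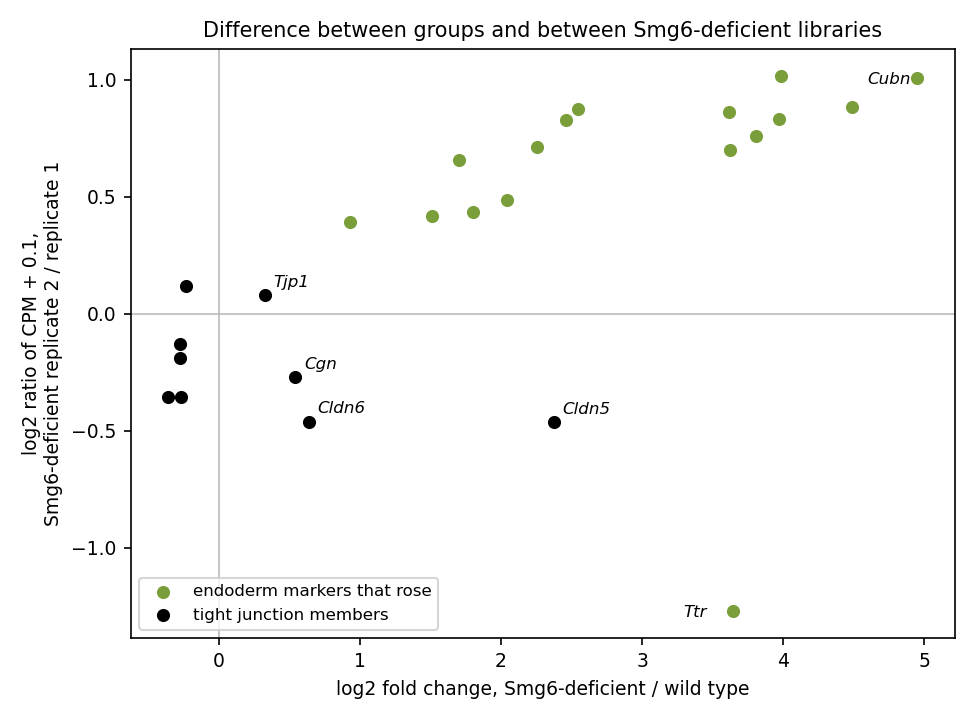
Log2 fold change between genotypes (horizontal axis) against the log2 ratio of CPM + 0.1 in Smg6-deficient replicate 2 over replicate 1 (vertical axis) for the 9 junction genes (black) and the 16 endoderm markers that rose (green). All of the markers except Ttr lie above 0 on the vertical axis, and Cldn5, Cldn6 and Cgn lie below it.

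Markers of other cell types gave mixed values, where 20.5% of all genes tested rose and 19.2% fell. Of 11 trophectoderm markers, 4 rose and 5 fell, with summed levels of 281 and 198 CPM in wild-type and 351 and 327 CPM in Smg6-deficient libraries. Krt18 and Krt8, keratins of simple epithelia, rose by log2 fold changes of 1.66 and 1.88, and Eomes fell by 1.42 on the log2 scale. Krt18 went from 49.8 and 36.6 CPM in wild-type to 137.5 and 135.6 CPM in Smg6-deficient libraries. Krt8 went from 23.7 and 16.6 CPM to 72.4 and 75.5 CPM. The rise of the sum lies mainly in these keratins and does not describe the list. Named after their values were seen, Cdx2 and Hand1 also rose, and Elf5, Gata3, Ascl2 and Tfap2c, which is also in the regulator list, also fell. Of 7 endothelial markers tested, beside the change of Cldn5, 3 rose and 3 fell. The summed level of the 8 markers was 164 and 174 CPM in wild-type and 105 and 97.5 CPM in Smg6-deficient libraries. Most of that sum was Pecam1, at 122.4 and 139.9 CPM in wild-type and 68.5 and 60.6 CPM in Smg6-deficient libraries. The sum therefore mainly follows Pecam1 and does not describe the list. Cdh5 (VE-cadherin, log2 fold change 2.51) and Kdr (1.73) rose and Tie1 (-1.10) fell, all named after their values were seen. Esam rose by 1.99, Pecam1 and Vwf had log2 fold changes of -1.02 and -1.29, and Emcn was counted 1, 0, 3 and 1 times. Fibroblast markers, which would mark feeder cells, had 2 of 10 higher and 0 lower, but the 2, Pdgfrb and Col1a1, passed in only 8 and 7 of 17 alternatives. Their summed level was 995 and 732 CPM in wild-type and 1194 and 1089 CPM in Smg6-deficient libraries. Most of it was Col1a1 (451.6 and 325.2 CPM, then 576.2 and 511.3 CPM) and Col1a2 (345.6 and 266.1 CPM, then 406.8 and 381.1 CPM). Col1a2 was named after its value was seen. This sum too does not describe the list. The part of any of these cell types in the values of the 9 genes was not tested.

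For each of the 4 genes that rose, the 2 genes with the most similar profile over the 4 libraries were found by the root mean square difference of centred log2 CPM, leaving out genes whose mean log2 CPM was under 2. For Cldn5 these were Prtg (0.097) and Hspa1a (0.17), for Cldn6 Gtf2i (0.028) and Egr1 (0.032), for Tjp1 Trappc8 (0.0051) and Zcchc7 (0.012), and for Cgn Plcg2 (0.022) and Anxa11 (0.024). With 4 libraries in 2 groups, likeness is mostly the size of the group difference.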

How the data were processed

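Gene-level RNA-seq values of 2 wild-type and 2 Smg6-deficient ES cell libraries were analysed. Per the labels' protocols, total RNA was made into TruSeq v2 libraries, a kit that does not mark strand, and read as single reads of 50 nt. Per the submitters' processing notes, TopHat2 2.0.9 and mm10 were used; for the counter, the annotation and the treatment of reads with several matches, the answer is not given in the sources used here. The authors deposited whole-number read counts and RPKM values for 37224 identifiers, of which 35449 (95.2%) had a symbol in GENCODE M21. The read totals implied by the deposited RPKM differed from the count totals: relative to wild-type replicate 1, wild-type replicate 2 had 1.02 by RPKM and 0.951 by counts. Replicates were not copies of one library (chi-square of counts over genes, divided by its degrees of freedom, 74.1 in the wild-type pair and 41.0 in the other).

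Genes were kept by filterByExpr at a minimum count of 10. TMM scaling and the quasi-likelihood F test of edgeR 4.0.16 (R 4.3.3) were applied, genotype being the sole term, with adjustment over 20895 genes at 0.05. A standard error was obtained from the log2 fold change and its F statistic, and intervals are 95%. Each gene left 2 residual degrees of freedom, and the common dispersion gave a biological coefficient of variation of 0.118. On simulated data for this comparison (20640 genes), 6 of 50 genes changed by 0.5 on the log2 scale were recovered, and 48 of 50 changed by 1, with 9 false calls. That simulation changed few genes and gave every gene the common dispersion, whereas 39.7% of genes were called in the data. With few changed genes the adjustment is stricter, so these counts are not the power or error rate of the real comparison. The alternatives used DESeq2 1.42.0, limma 3.58.1, other scalings and filters, a correction for the gene length that counts and RPKM imply, the replicate number as a block, and leaving out each library; in the last case the single library left in a group is assumed to vary like the other group.

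The genes and lists were chosen with earlier results of these data known. Named genes were the 9 members, Smg6, the called genes of lowest adjusted p, up to 4 from each junction or regulator list, up to 3 from each marker list (or up to 2 with the highest level where fewer than 2 passed), and the 2 nearest genes in profile to each member called; genes named outside this rule are marked as chosen after their values were seen, except those that complete a count. In the plaque list, 1 gene is counted but not reported here by name. The counts for the wider lists under the alternatives were added after the data were seen.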

Additional observations from a re-analysis of the deposited data

How the results depend on the processing

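Of the 9 genes, the number past the threshold was 4 in the analysis reported, 1 by limma-trend on log2(RPKM + 1) and 1 on log2(RPKM + 0.1) (Cldn5 each time), and between 1 and 5 when a library was left out, with 1 without Smg6-deficient replicate 1. The number of all genes past the threshold, 8289, lay between 5141 and 10477 when a library was left out, with 5141 and 5197 without Smg6-deficient replicates 1 and 2. No fold change of the 9 genes changed sign under any of the 17 alternatives. Over the 9 genes and the 13 alternatives that keep all libraries, 99 of 117 values kept their side of the threshold, 12 lost a call (Cldn6, Tjp1 and Cgn) and 6 gained one (Cldn4). With a library left out, 30 of 36 kept it, 4 lost a call and 2 gained one (Cldn3 and Cldn4).

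With the replicate number as a block, 9687 genes and 5 of the 9 passed, Cldn4 being the fifth, and with the gene length correction as well 9455 and 3. The libraries share only a number: the correlation across genes of the deviations of the replicates with the same number was 0.155, and with 2 libraries a group this is a single value. No call of the 9 was lost under the block alone. Depth does not limit the abundant members, but Cldn5, at 25 and 26 counts in wild-type cells, and Cldn9, at 125 to 181 counts, are the least precisely counted. Of the wider lists, the calls among 22 plaque genes went from 12 to 4 and 5 by limma-trend on the RPKM scales and, with the gene length correction, to 9 (5 higher and 4 lower, median 0.03, against 9 and 3, median 0.19), adherens genes from 4 to 1 on the RPKM scales, other claudins from 5 to 2 on log2(RPKM + 1) and with a filter of 50 counts, desmosome genes from 4 to 7 without wild-type replicate 1, and fibroblast markers from 2 to between 0 and 7.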
